A study of Mus musculus with 10 samples.

Results

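The comparison was between microglia with and without surface CD11c in the brains of wild-type C57BL/6 mice at postnatal day 5 (P5). It used the 3 CD11c+ and 3 CD11c- libraries of that age, 6 of the 10 libraries in the series, and all genes counted in them. Every P5 library came from brain cells that the labels call microglia, sorted by flow cytometry, and the groups shared strain, genotype, tissue and age and differed only in the CD11c sort. The other 4 libraries, 2 CD11c+ and 2 CD11c- from wild-type C57BL/6 mice of 9 months, were made with another library kit and entered only the test of a difference between ages. The labels do not say whether replicates came from separate animals or pools, so the p-values refer to the variation among these libraries, part of which may be technical.

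Microglia are the resident macrophages of the brain parenchyma. They settle in the embryo, multiply in the first postnatal weeks, clear dying cells and surplus synapses, and release growth factors. CD11c is a surface integrin, the alpha X chain, and its gene is Itgax. A CD11c+ state of microglia is known from the developing white matter, where it is linked to the growth factor Igf1. Border-associated macrophages live in the meninges, around vessels and in the choroid plexus, share many surface proteins with microglia, and are told from them by Mrc1, Lyve1, Cd163 and Pf4.

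The libraries differed before any gene was compared. Total counts were 15181698, 2619610 and 18707050 in CD11c+ replicates 1 to 3 and 11892082 to 14841417 in the CD11c- libraries. CD11c+ replicate 2 had 23033 genes at 1 CPM (a gene's count scaled to the library total) or more, against 13284 to 14735 in the others. Its log CPM correlated with those of the other 5 libraries at r = 0.636 to 0.737 across genes, while the other 5 correlated among themselves at 0.909 to 0.987. Each result is therefore given with all 6 libraries and with the 5 that remain without this library. Fold changes are given as the log2 of CD11c+ divided by CD11c-, with the standard error (SE), and levels are CPM scaled by trimmed means of M-values (TMM), listed from replicate 1 to 3.

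**Figure D1:**
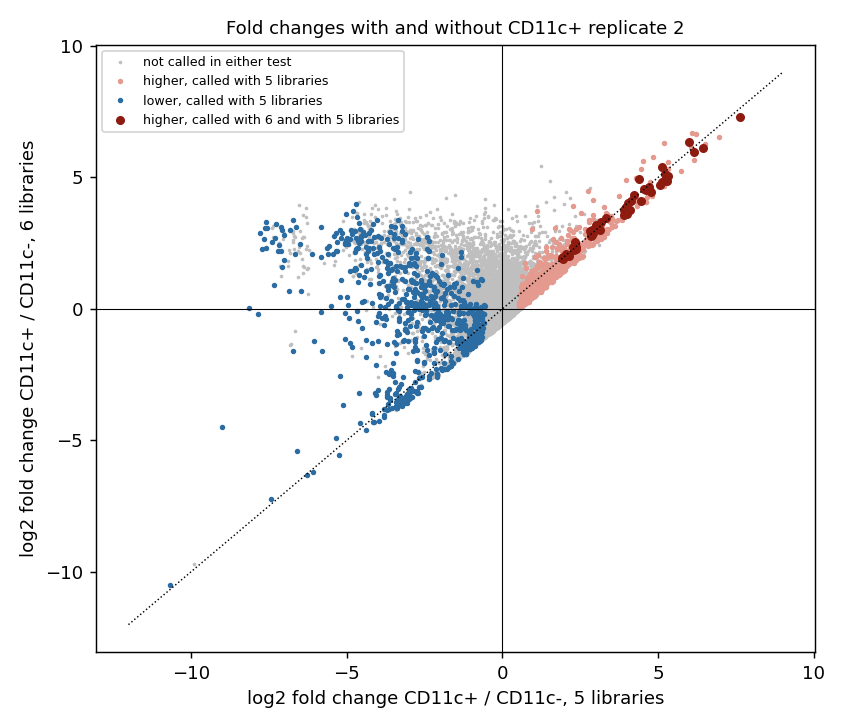
Log2 fold change of each tested gene with 6 libraries (vertical axis) against that with 5 libraries (horizontal axis). Genes called higher lie near the dotted line of equality, whereas many of the genes called lower with 5 libraries sit at or above 0 with 6, and 379 of the 691 tested in both were negative in both.

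With 6 libraries, 46 of 15410 genes tested passed an adjusted p of 0.05 (0.299%), all of them higher in CD11c+ and 0 lower. Before adjustment, p was under 0.05 for 668 higher and 409 lower genes, and DESeq2 called 359 higher and 149 lower. With 5 libraries, 1501 of 15841 genes passed (9.48%), 801 higher (5.06%) and 700 lower (4.42%). All 46 genes passed again there, in the same direction. Leaving out CD11c+ replicate 1 or 3, or any CD11c- library, from the 6 left 0 calls. Of the 5, leaving out CD11c+ replicate 1 left 156 higher and 18 lower, CD11c+ replicate 3 left 231 and 63, CD11c- replicate 2 left 380 and 226, and CD11c- replicate 3 left 313 and 144, whereas without CD11c- replicate 1 the counts were 1692 and 2269. Of the higher genes, 787 of 787 tested in both were positive in both. The 6 libraries include the 5 in which these genes were called, so this does not show that replicate 2 had the same direction. Of the 5, a fit without CD11c+ replicate 1 or 3 has a lone CD11c+ library, so its spread comes from CD11c- alone. A call lost in such a fit, here or below, does not show that it rested on the library left out. Below, "rose" and "fell" mean a call with 5 libraries unless 6 are named. Counts of list members stand beside 5.06% higher and 4.42% lower over all genes tested.

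The gene behind the sort came first. Itgax (ENSMUSG00000030789, chromosome 7, 128129547 to 128150657) measured 232.2, 47.5 and 138.0 CPM in CD11c+ and 30.6, 69.5 and 35.8 CPM in CD11c-. Replicates 1 and 3 of CD11c+ were above every CD11c- library, and replicate 2 was below CD11c- replicate 2, so the groups overlapped. The fold change was 1.63 (SE 0.61, adjusted p = 0.622) with 6 libraries and 2.06 (SE 0.38, adjusted p = 0.0222) with 5. Without CD11c+ replicate 1, which leaves a lone CD11c+ library, it was 1.63.

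Defining markers of microglia were present in every library. The 51 genes of the homeostatic microglia list summed to 30150, 20300 and 31390 CPM in CD11c+ and 43760, 33910 and 33180 CPM in CD11c-. Summed border macrophage markers (38 genes) moved the other way, at 21740, 23310 and 19550 CPM in CD11c+ and 3251, 2905 and 2470 CPM in CD11c-. Of the 37 tested, 16 rose with 6 libraries and 32 with 5, among them Mrc1, the mannose receptor, at 3786, 1837 and 3705 against 341.1, 344.4 and 231.0 CPM. No member of that list was at 0 in either group. Every gene described next as higher in CD11c+ was thus measured beside this difference, and the part of border macrophages in it was not tested. In sorted bulk RNA, fewer cells of a type and less RNA per cell cannot be told apart.

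**Figure D2:**
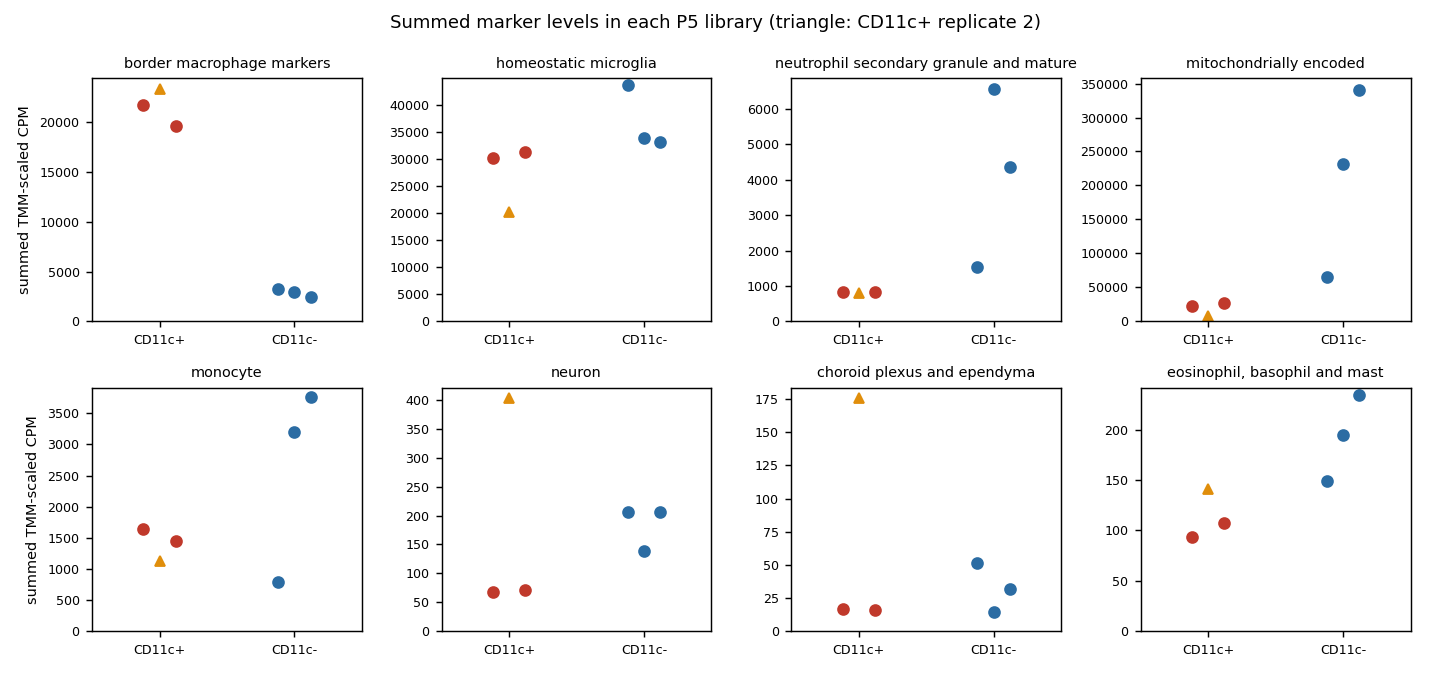
Summed TMM-scaled CPM of 8 marker lists in each P5 library, with CD11c+ in red, CD11c- in blue and CD11c+ replicate 2 as an orange triangle. Border macrophage markers were at 19550 to 23310 CPM in CD11c+ and 2470 to 3251 in CD11c-, and markers of neutrophils and mitochondrially encoded transcripts were highest in CD11c- replicates 2 and 3.

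Of the 46 genes called with 6 libraries, 30 were not on the border macrophage list, and 29 of these have a gene name. A gene off that list may still be expressed by border macrophages, which was not tested. The groups did not overlap for any of the 46, where 1293 of the 15410 genes tested (8.39%) were separated in that direction. They spanned secreted factors, receptors, endocytic and membrane proteins and a transcription factor, with the smallest log2 fold change at 1.91. All 29 also kept their call with 5 libraries when each of the 5 was left out in turn.

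Among the secreted factors, Ccl7, a chemokine that attracts monocytes, was at 90.2, 132.9 and 116.5 CPM in CD11c+ and 5.98, 6.04 and 4.92 CPM in CD11c-. All 3 CD11c+ libraries were at least an order of magnitude above the CD11c- ones, and the fold change was 4.32 (SE 0.27, adjusted p = 0.0179) with 6 libraries and 4.21 (SE 0.18, adjusted p = 0.000219) with 5. Ccn1, a matrix-associated protein that binds integrins, was at 57.1, 36.8 and 116.0 CPM against 3.12, 3.47 and 3.18 CPM, a fold change of 4.43 (SE 0.49, adjusted p = 0.0302) with 6. Egfl7, a secreted protein best known from vessels and a member of the endothelial marker list, was at 32.8, 50.1 and 39.9 against 4.73, 3.31 and 4.41 CPM (3.29, SE 0.29, adjusted p = 0.018), while the summed endothelial list was at 343.3 to 417.1 CPM in CD11c+ and 341.2 to 362.0 in CD11c-. Tnfsf18, the ligand of the T cell receptor GITR, was at 30.9, 15.1 and 40.03 against 2.18, 3.14 and 1.95 CPM (3.57, SE 0.46, adjusted p = 0.0479).

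The membrane proteins included receptors with known ligands. Sema6d, a transmembrane semaphorin that signals through plexins (chromosome 2, 124089969 to 124667770), was at 79.3, 54.5 and 52.9 CPM in CD11c+ and 4.36, 4.05 and 4.41 in CD11c-, and its fold change was 3.86 (SE 0.27, adjusted p = 0.0179) with 6 libraries and 3.98 (SE 0.22, adjusted p = 0.000257) with 5. The 3 CD11c- values lay close together and far below the lowest CD11c+ one. Npr1, the guanylyl cyclase receptor of atrial natriuretic peptide, measured 84.3, 25.8 and 69.9 against 5.42, 4.96 and 4.30 CPM (3.62, SE 0.47, adjusted p = 0.0494 with 6, 3.997, SE 0.18, adjusted p = 0.000219 with 5), with replicate 2 the lowest of the CD11c+ libraries. Fgfr1, a fibroblast growth factor receptor, measured 26.6, 40.5 and 31.5 against 2.18, 3.64 and 3.07 CPM (3.47, SE 0.33, adjusted p = 0.0206), with replicate 2 the highest. Gprc5c, an orphan G protein-coupled receptor, had the largest fold change of the 29, at 4.86 (SE 0.64, adjusted p = 0.0494) with 6 libraries, on 72.2, 19.5 and 54.9 against 0.872, 2.31 and 1.95 CPM. Trpv4, a cation channel opened by swelling and warmth, was at 53.9, 77.3 and 52.8 against 7.72, 9.18 and 6.46 CPM (2.97, SE 0.28, adjusted p = 0.018). Cemip2, a cell surface hyaluronidase, was at 57.5, 62.95 and 59.4 against 7.85, 13.7 and 13.1 CPM (2.38, SE 0.28, adjusted p = 0.0377).

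Proteins of endocytosis and the cytoskeleton formed another group among the 29. Itsn1, an endocytic scaffold, was at 262.1, 117.8 and 263.7 CPM in CD11c+, against 12.7, 19.7 and 14.9 CPM in CD11c- (3.77, SE 0.42, adjusted p = 0.0302 with 6, 4.09, SE 0.21, adjusted p = 0.000234 with 5). Reps2, an endocytic adaptor, measured 63.5, 78.8 and 56.7 against 6.23, 12.5 and 6.25 CPM. Psd3, an exchange factor of the small GTPase Arf6, measured 56.4, 48.96 and 51.1 against 5.73, 8.43 and 8.81 CPM. Arhgap10 was nearly equal in the 3 CD11c+ libraries, at 16.99, 16.9 and 16.96 CPM, and in the 3 CD11c- libraries, at 2.55, 2.23 and 2.36 CPM. Sash1, a signalling scaffold, measured 86.4, 141.7 and 91.5 against 16.8, 21.7 and 15.99 CPM. The fold changes of Reps2, Psd3, Arhgap10 and Sash1 with 6 libraries lay between 2.55 and 2.99. The remaining genes of the 24 largest were Cpne8, Nrap, Serpinb8, Spats2l, Cmah, Sh3bgrl2, Pomk and Rnf150, from 2.79 for Rnf150 to 4.64 for Cpne8. Beyond the 24 were Cdc42bpg, Smagp, Kank2, Sgsh and Tmem106a.

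**Figure D3:**
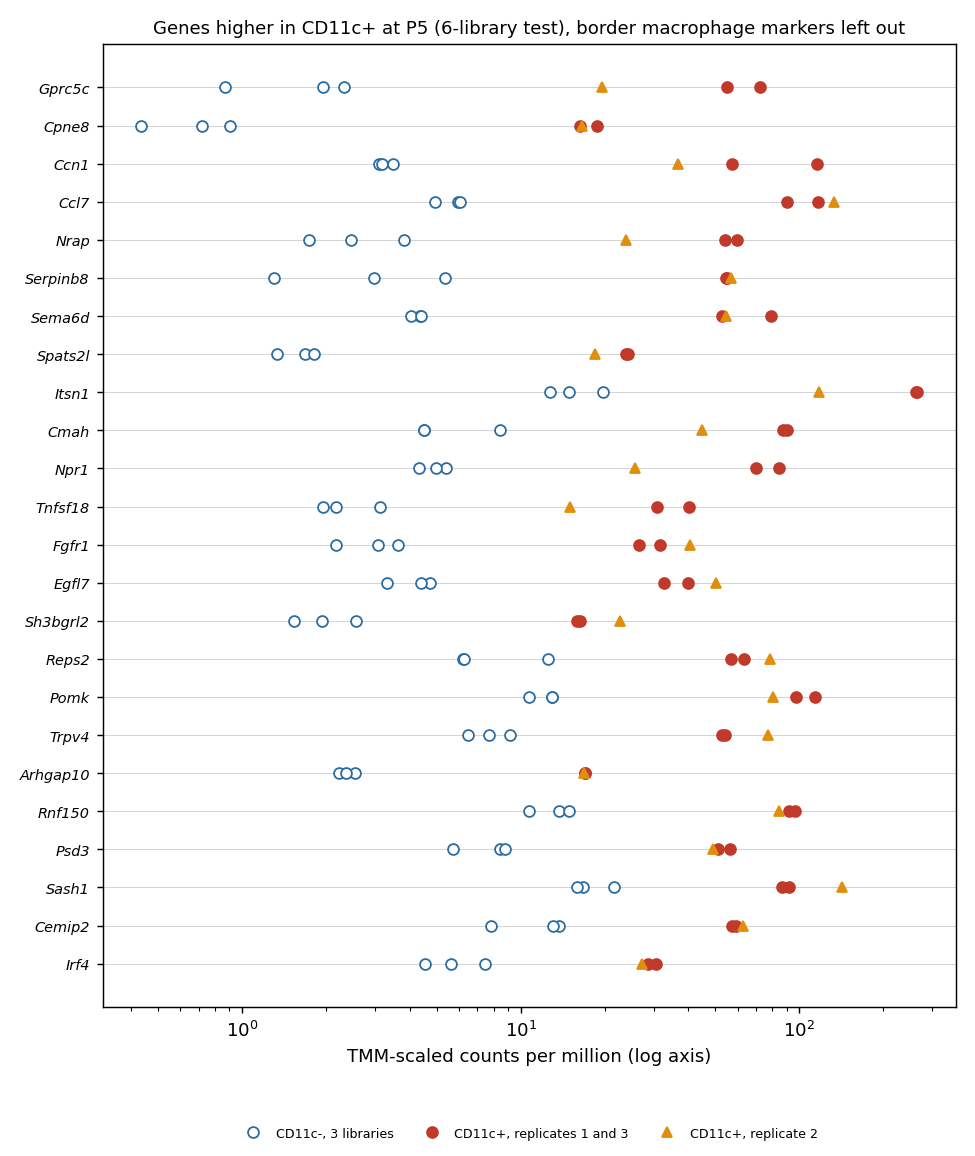
Levels of the 24 genes with the largest fold changes in the 6-library test, border macrophage markers left out, in TMM-scaled CPM on a log axis. Open circles are the 3 CD11c- libraries, filled circles CD11c+ replicates 1 and 3, and triangles CD11c+ replicate 2; for each gene all CD11c+ libraries lie to the right of all CD11c- libraries.

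With 5 libraries the largest increases outside the border and other-cell lists added 7 genes that did not pass with 6. Bmp2, a secreted bone morphogenetic protein, was at 52.4, 32.4 and 76.5 against 0.685, 3.14 and 1.02 CPM, with 5.36 (SE 0.51, adjusted p = 0.00209) with 5 libraries and 5.06 (SE 0.68, adjusted p = 0.053) with 6. Pltp, the phospholipid transfer protein, was at 93.8, 15.1 and 102.9 against 1.99, 6.04 and 4.61 CPM (4.60, SE 0.38, adjusted p = 0.00109 with 5, 4.08, SE 0.80, adjusted p = 0.145 with 6). Egfr, the receptor of epidermal growth factor, was at 23.8, 20.2 and 23.4 against 0.187, 1.41 and 2.36 CPM (4.29, SE 0.63, adjusted p = 0.0111 with 5, 4.12, SE 0.82, adjusted p = 0.147 with 6). Without CD11c+ replicate 1 its log2 fold change was 4.255. Adam33, a membrane metalloprotease, was at 152.8, 642.4 and 132.7 against 5.61, 7.94 and 5.33 CPM, with replicate 2 far above the next library. Ms4a14, Sorbs3 and Coro2b completed the group at log2 fold changes of 4.64 to 5.74. In replicate 2 the levels of Ms4a14, Sorbs3 and Coro2b were 13.2, 6.995 and 9.57 CPM, lower than in either other CD11c+ library.

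Growth factors and their partners were few. Of 34 tested trophic ligands, 4 rose (Bmp2, Ccn1, Igf1 and Gas6) and 2 fell (Pdgfb and Nrg1), and the list's median was -0.29 against -0.004 over all genes with 5 libraries. With 6 libraries Ccn1 alone rose and the median was 0.29, against 0.061 over all genes. Igf1, insulin-like growth factor 1, was at 439.0, 522.8 and 392.4 CPM in CD11c+ and 101.5, 121.1 and 64.8 CPM in CD11c-. Every CD11c+ library was more than 3 times every CD11c- library, with 2.15 (SE 0.26, adjusted p = 0.00525) with 5 libraries and 2.24 (SE 0.33, adjusted p = 0.0724) with 6, and the call held when each of the 5 was left out. Igfbp4, which binds it and is also on the border list, was at 925.7, 1160.0 and 884.0 against 209.9, 179.9 and 183.4 CPM and passed with 6 (2.37, SE 0.29, adjusted p = 0.0403). The receptor Igf1r was at 67.2, 128.9 and 76.8 against 87.7, 106.7 and 89.2 CPM and did not pass (-0.36, SE 0.15, adjusted p = 0.181 with 5).

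Genes of the axon tract and disease-associated state, a lysosomal and lipid-handling program in which Itgax is a marker, leaned the same way. Of 43 tested, 12 rose and 0 fell with 5 libraries, with a median of 0.61, and 0 passed with 6 (median 0.41). Without CD11c+ replicate 1 the count was 2. Gpnmb, a glycoprotein of lysosome-rich macrophages, was at 249.1, 47.5 and 126.7 against 17.4, 39.7 and 18.9 CPM (2.92, SE 0.42, adjusted p = 0.0104 with 5), and all CD11c+ libraries were above all CD11c- ones, replicate 2 by the smallest margin. Atp6v0d2, a subunit of the lysosomal proton pump, was at 20.6, 8.84 and 10.4 against 1.25, 3.39 and 2.36 CPM (2.78, SE 0.45, adjusted p = 0.0152). Nrp1, a receptor shared by semaphorins and vascular growth factor, was at 401.1, 804.0 and 385.5 against 138.0, 171.5 and 159.0 CPM (1.36, SE 0.16, adjusted p = 0.00461). Spp1, Apoe, Ephx1, Pld3, Cd68, Ank and Lgals1 rose as well, by 0.86 (Cd68) to 2.27 (Spp1).

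Of 75 lysosomal genes, 13 rose and 0 fell with 5 libraries, and 67 of 75 had a fold change above 0 (median 0.45). With 6, Sgsh alone rose and the median was 0.083. Only 3 rose without CD11c+ replicate 1. Hgsnat, an acetyltransferase of heparan sulfate breakdown, was at 519.5, 215.7 and 491.4 CPM in CD11c+ and 50.6, 66.7 and 61.8 in CD11c- (3.11, SE 0.17, adjusted p = 0.000259 with 5, 2.78, SE 0.41, adjusted p = 0.0724 with 6). Sgsh, a sulfatase of the same pathway, was at 37.4, 41.97 and 35.7 against 7.47, 9.92 and 11.7 CPM (1.98, SE 0.26, adjusted p = 0.0479 with 6). Ctsc, the protease cathepsin C, was at 1089, 701.3 and 1118 against 250.7, 314.0 and 282.4 CPM (1.996, SE 0.17, adjusted p = 0.0014 with 5). Both Hgsnat and Ctsc had their groups fully apart, and the summed list ranged from 26210 CPM in replicate 2 to 53470 CPM in replicate 1 within CD11c+, around the 33860 to 43980 CPM of CD11c-.

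Of the lists other than the border list, heme and iron genes had the highest share of members that rose. Border markers on the heme list, such as Cp and Blvrb, are counted in it. Both were among the 3 members that rose with 6 libraries. Of 26 tested, 13 rose and 2 fell with 5 libraries and 3 rose with 6, and without CD11c+ replicate 1, 5 of them rose. Cp, the ferroxidase ceruloplasmin, which is also a border marker, was at 77.8, 79.2 and 87.96 against 12.3, 9.51 and 11.6 CPM (2.88, SE 0.22, adjusted p = 0.0179 with 6). Blvrb and Blvra, reductases that turn biliverdin to bilirubin, were at 129.2, 157.2 and 151.1 against 34.5, 36.9 and 41.3 CPM and at 70.6, 71.05 and 76.8 against 26.97, 32.8 and 28.2 CPM. Blvrb, a border marker, passed with 6 (1.96, SE 0.22, adjusted p = 0.0302), and Blvra did not (1.31, SE 0.20, adjusted p = 0.0744) but passed with 5 (1.36, SE 0.15, adjusted p = 0.00367). The heme oxygenases Hmox1 and Hmox2, the iron exporter Slc40a1 and the transferrin receptor Tfrc rose by 1.49, 0.71, 1.57 and 0.74. The 2 that fell, Ltf and Lcn2, are iron-binding proteins of neutrophil granules.

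Chemokines and receptors of immune signals followed. Of 21 tested chemokines 4 rose (Ccl7, Ccl2, Ccl24 and Pf4) and 0 fell, and 3 of them, all but Ccl2, passed with 6. Of these, Ccl24 and Pf4 are also border markers. Ccl2, the main monocyte attractant, was at 182.5, 216.5 and 166.1 against 40.1, 17.03 and 42.01 CPM (2.43, SE 0.35, adjusted p = 0.0101 with 5, 2.51, SE 0.40, adjusted p = 0.0837 with 6). Of 24 chemoattractant receptors 6 rose, Ccr1, Cxcr3, Cmklr1, Gpr183, C5ar1 and C3ar1, and 1 fell, Cxcr2, the neutrophil chemokine receptor, with 2 and 0 without CD11c+ replicate 1. Ccr1 was at 211.4, 74. and 174.9 against 37.1, 44.4 and 33.2 CPM (2.37, SE 0.18, adjusted p = 0.000742) and Cxcr3 at 29.5, 4.42 and 26.7 against 3.24, 2.48 and 1.13 CPM (3.60, SE 0.35, adjusted p = 0.00234), and both kept their call when each of the 5 libraries was left out. Neither passed with 6. Of 47 cytokines and cytokine receptors 10 rose, led by Il4ra, Il10rb, Lifr and Tgfbr2 at 0.81 to 1.21, and 0 of the 47 passed with 6 libraries or without CD11c+ replicate 1. Il4ra, the interleukin 4 receptor, was at 307.9, 139.2 and 311.8 against 136.7, 146.8 and 126.2 CPM, with replicate 2 inside the CD11c- range.

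Complement genes rose in 11 of 26 tested and fell in 0, with 2 passing with 6 (the border markers Fcna and Colec12) and 5 without CD11c+ replicate 1. C2 and C4b, components that assemble into the classical C3 convertase, were at 69.7, 24.7 and 62.9 against 6.23, 6.78 and 2.25 CPM (3.71, SE 0.37, adjusted p = 0.00259) and 38.6, 16.6 and 41.3 against 5.48, 5.95 and 3.18 CPM (3.05, SE 0.26, adjusted p = 0.00119). All CD11c+ libraries were above all CD11c- libraries for both, and neither passed with 6, at an adjusted p of 0.103 and 0.0985. Of 11 Fc receptors, 2 rose: Fcgrt, the neonatal receptor that recycles antibody, at 817.7, 752.5 and 876.9 against 264.9, 257.2 and 240.6 CPM (1.77, SE 0.16, adjusted p = 0.00143), and the inhibitory Fcgr2b, at 380.5, 561.1 and 429.2 against 148.8, 129.6 and 135.4 CPM (1.58, SE 0.15, adjusted p = 0.0021). Of 41 Toll-like receptor genes and their feedback regulators 4 rose with 5 libraries, 1 without CD11c+ replicate 1 and 0 with 6. Tlr5, the flagellin receptor, was the firmest, at 39.2, 15.5 and 34.8 against 6.35, 7.61 and 6.46 CPM (2.47, SE 0.17, adjusted p = 0.000611).

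Antigen presentation genes were called in class II, and no difference between the classes was tested. Of 21 class II and costimulation genes 6 rose and 0 fell with 5 libraries (Cd40, Ciita, H2-DMb1, H2-Eb1, H2-Ab1 and H2-Aa), 0 with 6, and 1 without CD11c+ replicate 1, and 15 of 21 had a fold change above 0 (median 0.32). Ciita, the transcriptional activator of class II genes, was at 7.64, 5.52 and 11.3 against 0.748, 1.90 and 1.84 CPM (2.72, SE 0.42, adjusted p = 0.0132). H2-Eb1 was at 136.1, 65.5 and 290.4 against 4.86, 32.6 and 34.02 CPM (3.20, SE 0.71, adjusted p = 0.0371). Of 23 class I genes 0 passed in either direction with 5 or with 6 libraries, and 20 of 23 had a fold change above 0 with 5 (median 0.34). H2 genes are near-identical copies, and reads shared between them may have been split or lost. In the dendritic cell list, which holds 25 tested genes, 5 rose, among them Clec10a and Mgl2, which are also border markers. The summed level of the list was 3009 to 4160 CPM in CD11c+ and 3715 to 4056 CPM in CD11c-.

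Genes of the interferon response, the antiviral program set off by interferons, leaned towards CD11c+. Of 60 tested, 18 rose and 0 fell with 5 libraries and 51 were above 0, with a median of 0.57. With 6 libraries 0 passed and the median was 0.44. The count was 2 without CD11c+ replicate 1 and 29 without CD11c- replicate 1. Ddx60, a helicase of antiviral sensing (chromosome 8, 61928087 to 62038244), was at 114.7, 74. and 118.6 CPM in CD11c+ and 26.9, 28.1 and 20.9 CPM in CD11c-, the groups apart (2.23, SE 0.17, adjusted p = 0.000742 with 5, 2.02, SE 0.28, adjusted p = 0.0551 with 6). Ifit3, an antiviral effector, was at 31.2, 9.20 and 25.8 against 10.2, 8.68 and 8.30 CPM (1.68, SE 0.18, adjusted p = 0.00378), with replicate 2 inside the CD11c- range. Oas2, which makes the activator of RNase L, was at 124.6, 19.9 and 82.5 against 19.1, 33.9 and 27.1 CPM (1.99, SE 0.27, adjusted p = 0.00876).

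Promoter windows are shown for 4 genes, because interferon-response genes share a known regulatory element and because the comparison has genes of either direction. The sequences are the 250 bases before the annotated start in RefSeq (GRCm38.p6), written 5′ to 3′ on the gene's strand, and capitals mark the letters searched on both strands. These were GAAA followed after any 2 bases by another GAAA, the core of the interferon-stimulated response element, GAGGAAGT, a PU.1 site, and TGCTGA, a MAF half-site. All 4 were chosen after their matches were seen: Ddx60 and Ifit3 from the interferon list, Tnfsf18 from the genes higher with 6 libraries and Crybb1 from the homeostatic genes that fell, and none stands for its set. Ddx60 lies on the plus strand at chr8:61927837-61928086, Ifit3 on the plus strand at chr19:34583279-34583528, Tnfsf18 on the plus strand at chr1:161494407-161494656 and Crybb1 on the plus strand at chr5:112255570-112255819.
Ddx60: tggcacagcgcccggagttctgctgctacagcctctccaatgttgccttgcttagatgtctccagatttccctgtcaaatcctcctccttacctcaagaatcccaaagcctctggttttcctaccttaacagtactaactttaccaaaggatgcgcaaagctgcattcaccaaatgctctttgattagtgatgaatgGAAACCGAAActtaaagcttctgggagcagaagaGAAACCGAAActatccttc
Ifit3: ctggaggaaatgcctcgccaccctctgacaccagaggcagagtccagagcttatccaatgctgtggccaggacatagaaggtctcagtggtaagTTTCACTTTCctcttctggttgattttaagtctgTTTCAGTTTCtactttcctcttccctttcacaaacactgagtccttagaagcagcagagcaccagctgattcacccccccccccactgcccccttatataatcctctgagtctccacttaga
Tnfsf18: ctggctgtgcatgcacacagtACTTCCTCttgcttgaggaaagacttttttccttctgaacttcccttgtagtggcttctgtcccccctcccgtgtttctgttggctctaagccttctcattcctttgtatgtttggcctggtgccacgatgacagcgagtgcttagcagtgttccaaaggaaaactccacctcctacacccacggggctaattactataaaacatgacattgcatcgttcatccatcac
Crybb1: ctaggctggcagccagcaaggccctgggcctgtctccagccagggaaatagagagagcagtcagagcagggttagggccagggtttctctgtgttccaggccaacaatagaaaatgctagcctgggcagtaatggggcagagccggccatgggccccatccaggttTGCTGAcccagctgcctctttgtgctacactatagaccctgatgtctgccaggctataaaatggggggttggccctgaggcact

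Both interferon promoters held the interferon letters at 2 places, Tnfsf18 held the PU.1 letters and Crybb1 the MAF half-site. Of the 27 promoters of the 30 genes higher with 6 libraries outside the border list, 1 held the PU.1 letters, 4 the half-site and 0 the interferon letters. Of the 9 promoters of the 12 homeostatic genes that fell, these counts were 1, 2 and 0. In the interferon list, 25 of 57 promoters (43.9%, 49 genes with an entry) held the interferon letters, and among the members that rose, 9 of 16 (56.2%, 15 genes). Across all 32851 promoters of the table the share was 2.98%. Of the genes that rose with border and other-cell markers left out, 563 of 762 had an entry and 4.32% of their 741 promoters held it, against 1.84% of 380 promoters for 284 of the 640 genes that fell. The 32 promoters behind that 4.32% overlap the 9 above, since the genes that rose include members of the interferon list. The 13834 promoters of tested genes held the interferon letters in 2.81%. The PU.1 letters were in 3.1% and 2.63% of the sets that rose and fell, 2.66% of tested genes' promoters and 2.44% of all, and the MAF half-site in 13.8% and 13.9%, against 13.3% and 16.1%. The border list had the half-site in 12 of 37 promoters (32.4%) and the homeostatic list in 11 of 46 (23.9%). These are counts of letters in a window and not binding sites.

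Guidance, adhesion and transcription factor genes were mixed. Of 34 semaphorins, plexins, neuropilins and Slits, 8 rose, among them Sema6d, Plxna1, Slit1 and Nrp1, and 2 fell, Sema3c and Slit2, with 4 and 0 without CD11c+ replicate 1. Only Sema6d passed with 6. Plxna1, a semaphorin receptor chain, was at 20.97, 1.84 and 19.97 against 3.61, 4.13 and 3.59 CPM (2.46, SE 0.20, adjusted p = 0.000916 with 5), with replicate 2 below all CD11c- libraries. Slit1, a secreted guidance protein, was at 16.1, 1.84 and 14.1 against 1.56, 0.992 and 0.512 CPM (3.85, SE 0.38, adjusted p = 0.00236). Of 50 macrophage transcription factors 5 rose (Irf4, Egr2, Tfec, Ahr and Rxra) and 0 fell, and without CD11c+ replicate 1, 1 rose. In that fit, with a lone CD11c+ library, Egr2, Tfec, Ahr and Irf4 had log2 fold changes of 1.42, 1.07, 2.72 and 2.31. Irf4, which acts in alternatively activated macrophages and dendritic cells, was at 30.5, 27.2 and 28.6 CPM against 4.55, 7.44 and 5.64 CPM and passed with 6 (2.29, SE 0.29, adjusted p = 0.0431). Egr2, an early-response zinc finger factor, was at 43.3, 44.2 and 41.5 against 17.7, 14.6 and 14.8 CPM (1.46, SE 0.16, adjusted p = 0.00355 with 5, 1.45, SE 0.20, adjusted p = 0.062 with 6). Ahr, the aryl hydrocarbon receptor, was at 34.5, 27.2 and 35.1 against 2.24, 7.52 and 6.76 CPM (2.71, SE 0.43, adjusted p = 0.0139). In each of Irf4, Egr2 and Ahr the 3 CD11c+ libraries agreed closely and stood above CD11c-.

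Surface and matrix genes gave further calls in either direction. The shares over all genes tested were 5.06% higher and 4.42% lower. The shares that rose in the integrin, TGF-beta and immediate-early lists lay near the former. Of 35 C-type lectins and Siglecs 11 rose and 1 fell, of 40 engulfment and scavenger receptors 9 rose and 2 fell, and without CD11c+ replicate 1 the risers were 7 and 5. Many of these are border markers, such as Cd209f, Siglec1 and Stab1. Of 46 lipid genes 5 rose and 1 fell, and of 36 matrix and protease genes 6 rose and 4 fell. In each of the lipid and matrix lists 1 rose and 0 fell without CD11c+ replicate 1. Plau, the urokinase protease, was at 196.9, 174.5 and 188.7 against 79.9, 67.5 and 49.7 CPM (1.58, SE 0.21, adjusted p = 0.00712), with the groups apart. Of 21 purinergic receptors 3 rose and 1 fell, and P2rx4, an ATP-gated channel of microglia, was at 176.8, 615.5 and 156.9 against 77.99, 76.8 and 74.4 CPM (1.16, SE 0.14, adjusted p = 0.00461), replicate 2 standing highest. Among the purinergic receptors 0 passed without CD11c+ replicate 1. Of 37 integrins and adhesion genes 2 rose (Itgax and Ninj1) and 1 fell (F11r), of 29 TGF-beta and BMP signalling genes 2 rose (Tgfbr2 and Bmpr2), and of 41 immediate-early and heat-shock genes 2 rose (Egr2 and Egr3). Of these, 0 integrin and adhesion genes, 0 TGF-beta and BMP genes and 1 immediate-early gene passed without CD11c+ replicate 1. With 6 libraries 2 lectins and 2 engulfment receptors rose, and 0 genes passed in the lipid, matrix, purinergic and integrin lists.

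Several groups moved little, with calls near or below the 5.06% higher and 4.42% lower over all genes tested. Of 71 nuclear genes of the respiratory chain and 47 G2 and M phase genes, 0 passed in either direction with 5 or with 6 libraries, and of 45 S phase genes 2 fell with 5, Cdca7 and Gins1, and 0 without CD11c+ replicate 1. Their medians were -0.057, -0.021 and -0.12 with 5 libraries, and each changed sign under at least 1 other scaling, filter or test. Of 25 glycolysis genes 0 rose and Slc2a5, a fructose transporter that also marks microglia, fell. Of 24 cholesterol synthesis genes Srebf2 alone rose (0.92, SE 0.17, adjusted p = 0.0231). Neither Slc2a5 nor Srebf2 passed without CD11c+ replicate 1.

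The lower side rests on 5 libraries, since 0 of the 15410 genes passed with 6. By group separation, which includes replicate 2, 1337 genes (8.68%) were lower in all 3 CD11c+ libraries than in all 3 CD11c- ones. Of the 700 that fell, 60 were on lists of other cell types, 28 lay in the mitochondrial genome and 612 were neither, and 227 were also separated with replicate 2 included. The 20 genes named here are the largest decreases among the separated genes with an average log2 CPM of at least 3, other-cell and mitochondrial genes left out. Without CD11c+ replicate 1 a lone CD11c+ library remained, too few to judge these calls. The log2 fold changes of the 20 then lay between -2.95 and -0.96. Of the 20, Chil1, Olfm4, Slfn4, Adgrl1 and Kcnk12 kept their call in only 1 of the 5 fits that left out 1 library. These genes thus also lost it without a CD11c- library, with CD11c+ replicates 1 and 3 both in the fit.

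Homeostatic microglia genes were lower as a group. With 5 libraries 12 of 51 fell and 1 rose (Tgfbr2), 41 had a fold change below 0, and the median was -0.48. With 6, 0 passed and the median was -0.75, and in 29 of 51 all CD11c+ libraries were below all CD11c- ones. Without CD11c+ replicate 1, 0 passed, and without CD11c- replicate 1, 19 fell. Tmem119, a membrane protein that marks parenchymal microglia (chromosome 5, 113793729 to 113800516), was at 88.3, 26.1 and 151.8 CPM in CD11c+ and 489.8, 280.1 and 337.1 CPM in CD11c-. The highest CD11c+ library was well below the lowest CD11c- one, and replicate 2 was the lowest of all (-1.59, SE 0.32, adjusted p = 0.0298 with 5, -2.05, SE 0.62, adjusted p = 0.415 with 6). Crybb1, a crystallin gene of developing microglia, was at 205.4, 80.3 and 207.6 against 573.9, 472.7 and 484.6 CPM (-1.28, SE 0.17, adjusted p = 0.00827 with 5, -1.63, SE 0.42, adjusted p = 0.273 with 6). Sall3, a zinc finger factor related to Sall1, was at 40.04, 37.2 and 44.8 against 86.3, 90.3 and 79.4 CPM (-0.98, SE 0.14, adjusted p = 0.0107), and Slc2a5 at 47.98, 23.2 and 53.02 against 151.5, 111.0 and 100.7 CPM (-1.23, SE 0.21, adjusted p = 0.0168). Rapgef5, Nav3, Adgrg1, Ecscr, Arhgap5, Sparc, Tmem100 and Siglech fell by 0.99 to 1.34 on the log2 scale. For Nav3, replicate 2 (48.2 CPM) lay inside the CD11c- range.

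Outside that list, other single genes fell, among them F11r of the integrin and adhesion list. Pmepa1, a feedback inhibitor of TGF-beta signalling (chromosome 2, 173224458 to 173276533), was at 70.97, 68.1 and 85.97 CPM in CD11c+ and 204.2, 183.2 and 237.0 CPM in CD11c-, with the 3 CD11c+ libraries close together (-1.38, SE 0.18, adjusted p = 0.00712 with 5, -1.47, SE 0.24, adjusted p = 0.0972 with 6). Cdk5r1, the p35 activator of the kinase Cdk5, was at 42.4, 36.5 and 37.1 against 119.0, 85.8 and 106.5 CPM (-1.36, SE 0.18, adjusted p = 0.00852 with 5, -1.42, SE 0.23, adjusted p = 0.0837 with 6). Tjp1, the junction scaffold ZO-1, was at 21.2, 36.1 and 28.6 against 82.2, 54.3 and 62.6 CPM (-1.39, SE 0.23, adjusted p = 0.0162), and F11r, a junctional adhesion molecule, at 118.8, 25.8 and 135.0 against 348.6, 261.7 and 310.2 CPM (-1.25, SE 0.18, adjusted p = 0.011). The groups were apart in all 4 of these genes, which for Pmepa1, Cdk5r1 and Tjp1 was a condition of being named.

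Channels and matrix genes were also among the 20. Kcnd1, a voltage-gated potassium channel, was at 12.7, 35.3 and 17.3 against 56., 40.4 and 40.7 CPM (-1.58, SE 0.23, adjusted p = 0.0101), and Kcnk12, of the potassium leak channel family, at 5.99, 5.89 and 8.46 against 20.5, 17.2 and 17.01 CPM (-1.31, SE 0.23, adjusted p = 0.0185). Col27a1, a fibrillar collagen, was at 37.5, 94.6 and 45.9 against 168.3, 107.5 and 144.1 CPM (-1.72, SE 0.23, adjusted p = 0.00737), with replicate 2 just under the lowest CD11c- library. Mrc2, the collagen uptake receptor Endo180, was at 6.11, 2.21 and 6.67 against 23.3, 15.5 and 22.1 CPM (-1.64, SE 0.24, adjusted p = 0.011), opposite in direction to its relative Mrc1. Camk2n1, an inhibitor of the kinase CaMKII, was at 14.6, 29.1 and 27.9 against 98.6, 57.4 and 75.9 CPM (-1.84, SE 0.34, adjusted p = 0.022). Tmem44, Slco4a1, Spint1, Adgrl1, Il18rap and Ecscr completed the group at -1.94 (Slco4a1) to -1.30.

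**Figure D4:**
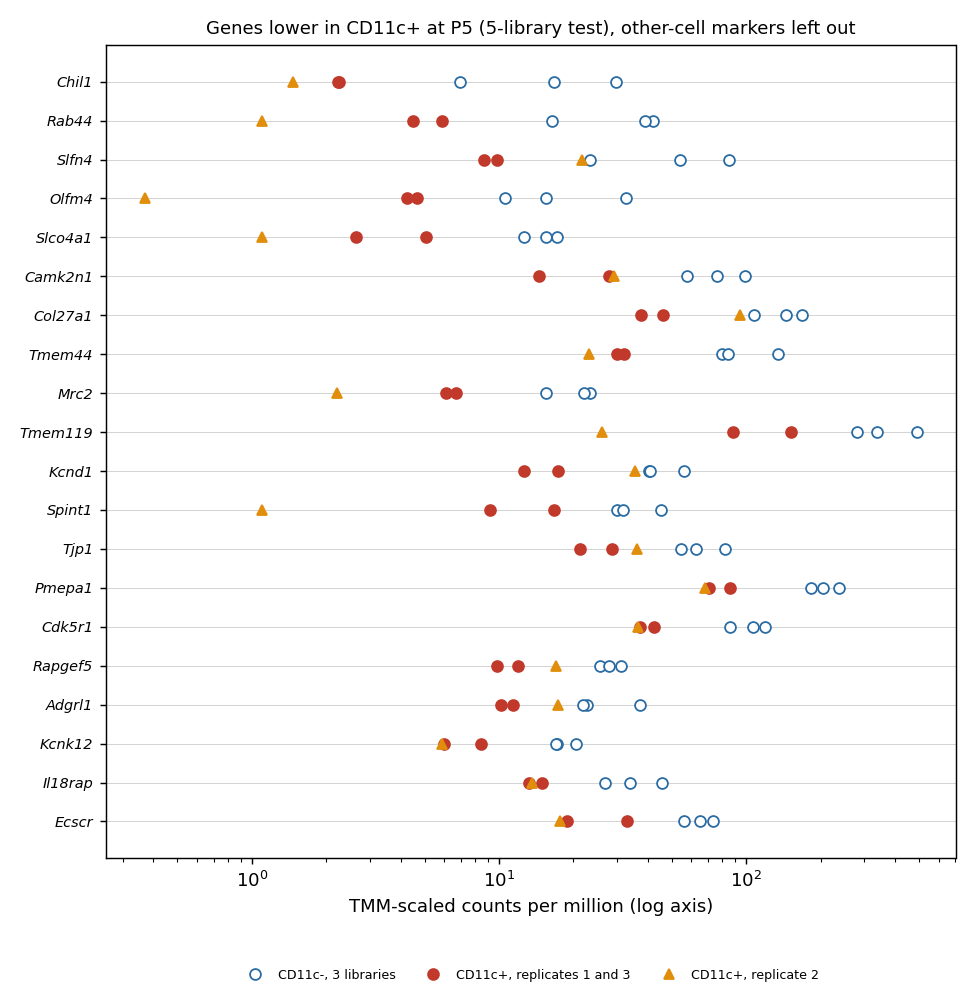
Levels of the 20 genes with the largest decreases in the 5-library test among those separated in all 6 libraries, other-cell markers left out, in TMM-scaled CPM on a log axis. Open circles are the 3 CD11c- libraries, filled circles CD11c+ replicates 1 and 3, and triangles CD11c+ replicate 2; all CD11c+ libraries lie to the left of all CD11c- libraries, by a small margin for Slfn4, Col27a1 and Kcnd1.

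The 4 largest of the 20 decreases were measured beside a difference in neutrophil markers. Chil1, a chitinase-like protein, was at 2.26, 1.47 and 2.24 against 6.98, 29.7 and 16.7 CPM (-2.94, SE 0.60, adjusted p = 0.0306), and Olfm4, a glycoprotein of neutrophil granules, at 4.65, 0.368 and 4.23 against 10.5, 32.5 and 15.5 CPM (-2.10, SE 0.48, adjusted p = 0.0404). Rab44, a large GTPase of secretory granules, was at 5.87, 1.10 and 4.48 against 16.3, 41.9 and 38.9 CPM (-2.61, SE 0.43, adjusted p = 0.0164), and Slfn4, a myeloid Schlafen gene, at 9.84, 21.7 and 8.66 against 23.4, 85.2 and 53.9 CPM (-2.52, SE 0.51, adjusted p = 0.0299). In all 4, CD11c- replicate 1 was the lowest of the CD11c- libraries. Of 34 neutrophil secondary granule and mature markers, 20 fell, 34 were below 0 and the median was -3.24, and of 8 primary granule markers 4 fell. Leaving out CD11c+ replicate 1, 0 of either list fell, and across the fits that left out 1 library the counts were 0 to 32 and 0 to 7. The secondary granule list summed to 843.9, 795.6 and 819.0 CPM in CD11c+ and to 1544, 6573 and 4362 CPM in CD11c-, so that CD11c- replicate 1 was again the lowest. The part of neutrophils in these decreases was not tested.

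Markers of other blood cells were mixed. Of 15 markers of eosinophils, basophils and mast cells 8 fell and 0 rose, and without CD11c+ replicate 1, 4 fell. Prss34, a basophil protease, was counted 492 times over CD11c- and 0 times over CD11c+, which is at least 167.5-fold lower when 3 counts over the whole group are taken as the floor. Ms4a2, the beta chain of the IgE receptor, had 1 count against 108, a ratio of 110 with an exact 95% interval of 19.4 to 4396. Mcpt8, a basophil protease, was at 0, 3.68 and 0.0509 against 11.3, 12.1 and 32.8 CPM (-8.98, SE 0.98, adjusted p = 0.00378). Prss34, Mcpt8 and Gata2 kept their call when each of the 5 libraries was left out. Of 20 monocyte markers 2 fell (Ly6c2 and Vcan), and their sum was 1128 to 1645 CPM in CD11c+ and 786.2 to 3762 CPM in CD11c-. Of 29 lymphocyte markers 6 fell, among them the B cell factors Ebf1 and Pax5, and 1 rose, Cd4, at 55.99, 10.3 and 59.5 against 1.62, 2.73 and 2.05 CPM (4.80, SE 0.23, adjusted p = 0.000219). In the fit without CD11c+ replicate 1, 0 monocyte and 0 lymphocyte markers fell. The platelet list, whose sum includes the border marker Pf4, was at 627.8, 1296 and 733.9 CPM in CD11c+ and 62.7, 72.3 and 62.9 CPM in CD11c-.

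The largest share of counts to differ was mitochondrial. Transcripts of the mitochondrial genome took 2.39%, 0.791% and 2.80% of counts in CD11c+ and 7.19%, 20.8% and 28.1% in CD11c-. All 13 protein-coding members fell with 5 libraries (median -3.06), 0 of 13 passed with 6 (median -3.40), and all 13 were separated in the 6 libraries. Without CD11c+ replicate 1, 0 passed. Nuclear genes of the same chain did not move with them, as above, so the scaling was repeated without mitochondrial and neutrophil genes, which gave 745 higher and 709 lower with 5 libraries.

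Among markers of neurons, B cells and the choroid plexus, replicate 2 decided the direction of some medians and genes. Of 26 neuronal markers 11 fell and 1 rose with 5 libraries (median -1.82), whereas with 6 the median was 0.37 and 0 passed. The counts were 1 and 0 without CD11c+ replicate 1. The summed list was at 67.2, 405.0 and 70.2 CPM in CD11c+ and 205.6, 138.2 and 205.6 CPM in CD11c-. Meg3, a neuronal long non-coding RNA, was at 2.51, 34.97 and 1.07 against 96.99, 42.1 and 62.2 CPM (-5.22, SE 0.52, adjusted p = 0.00249 with 5, -2.53, SE 1.23, adjusted p = 0.774 with 6). The fold change of Meg3 was thus below 0 with and without replicate 2. Ebf1 was at 0.183, 63.3 and 0.356 against 2.49, 5.29 and 6.35 CPM, and Kl, of the choroid plexus, at 0, 20.6 and 0 against 0.934, 0.992 and 1.74 CPM, so that replicate 2 was the highest library for both while the other CD11c+ libraries were the lowest. Otx2 and Clic6 had the same order.  Of the erythroid and oligodendrocyte markers 0 were called, of the mural markers 1 fell, and of the astrocyte, endothelial and platelet markers 1 rose in each, with 1, 1 and 2 that fell.

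**Figure D5:**
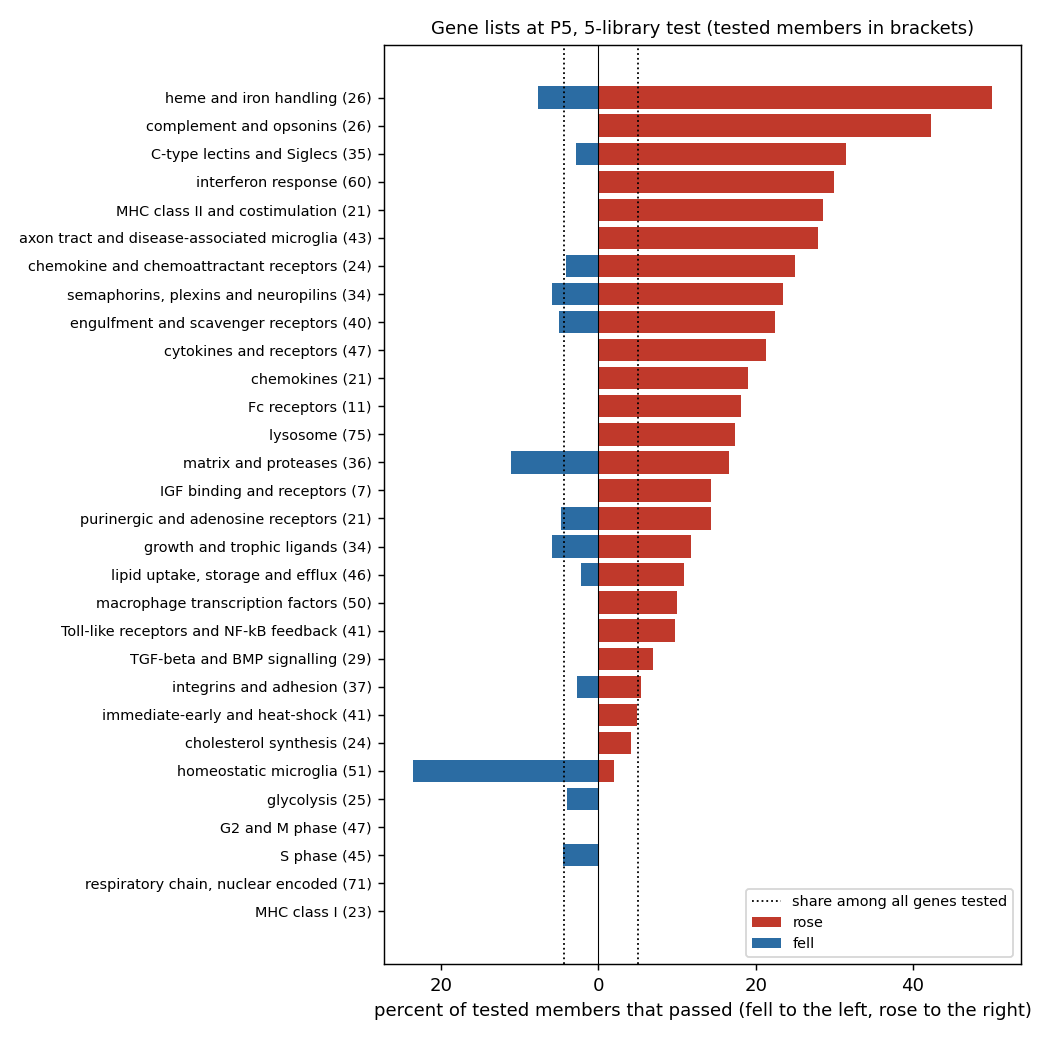
Percent of tested members that passed with 5 libraries, for each gene list other than the border macrophage, other-cell and mitochondrially encoded ones, rising to the right in red and falling to the left in blue, with tested members in brackets and dotted lines at the share among all genes (5.06% higher, 4.42% lower). Of the lists drawn, heme and iron, complement, lectins and interferon reach furthest to the right and homeostatic microglia furthest to the left. Border markers that are also members of a drawn list, such as Cp and Fcna, are counted in it.

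The P5 fold changes were set beside those at 9 months in a fit of all 10 libraries, in which 364 of 19555 genes (1.86%) passed the test of the difference. Leaving out CD11c- replicate 3 or any 9-month library left 0, and the library kit differs between the ages, so an effect of the kit on the subsets cannot be told apart from age. Pmepa1 was -1.54 at P5 and 1.61 at 9 months, a difference of -3.14 (SE 0.45, adjusted p = 0.0154). Tmem44, Mrc2, Slco4a1, Kcnd1, Col27a1, Ecscr, Sall3, Nav3 and Slc2a5 had the same order, below 0 at P5 and above 0 at 9 months. Cmah was 3.65 at P5 and -1.85 at 9 months, a difference of 5.49 (SE 0.66, adjusted p = 0.013), and Cemip2, Arhgap10, Tfec, Ahr, Ccr1 and Ddx60 were likewise above 0 at P5 and below 0 at 9 months. The edgeR test of the 9-month fold change alone gave an adjusted p of 0.0568 for Cmah, 0.0854 for Arhgap10 and 0.0157 for Cemip2. A difference between ages that passes does not by itself show a turned direction at 9 months. For Itgax the difference was -0.59 (SE 0.90, adjusted p = 0.795), and it did not pass.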

How the data were processed

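RNA was measured by bulk RNA-seq in FACS-sorted microglia. Per the file headers, the deposited values are whole-number counts of reads assigned to each of 49315 genes, without normalization. Per the submitters' processing notes the tools were Trimmomatic 0.36, STAR 2.5.2b and Subread 1.5.2. Genome build, strand setting and handling of multiply mapped reads are not given in the sources used here, so overlapping and antisense genes cannot be told apart. Of the 49315 genes, 44858 (91.4% of the 49056 shared) have the same start and end in GENCODE M21 (GRCm38), and printed coordinates are those of the deposited files, while promoter windows are those of RefSeq on GRCm38.p6. Per the labels' protocols, the 9-month libraries used a low-input kit and the P5 ones standard Illumina methods.

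The counts were tested with edgeR 4.0.16 (quasi-likelihood F-test) in R 4.3.3 after filterByExpr and TMM scaling, with Benjamini-Hochberg adjustment over all genes tested and a threshold of 0.05. The P5 groups were fitted with 6 libraries and with 5. The subset by age interaction used all 10. The SE is the fold change divided by the root of its F statistic. The test was checked on simulated counts. Alternatives were other scalings and filters, DESeq2 1.42.0, limma-voom (limma 3.58.1) with and without sample quality weights, a replicate block, and leaving out each library. A lone library left in a group was assumed to vary like the others.

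Named genes were Itgax, the 24 largest fold changes called with 6 libraries outside the border list, the 15 largest increases and 20 largest decreases called with 5 that were separated in all 6 and reached 3 or more in average log2 CPM, and up to 4 members per list with the smallest p. Gene models without a name were counted only. The 46 lists held 1625 members, of which 1621 matched. Members and lists were chosen with earlier results of these data known. The exact 95% interval and the floor of 3 counts cover counting error only. Chi-square values per degree of freedom between replicates were 28.3 to 243.9, far above sampling noise, and no library was counted as a duplicate. Columns of per-sample values left unused numbered 0.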

Additional observations from a re-analysis of the deposited data

Results flagged for a closer look

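For 31 of the 217 named genes the CD11c+ to CD11c- fold change differed between P5 and 9 months by the interaction test of edgeR at an adjusted p under 0.05, in a fit of all 10 libraries. Over all 19555 genes tested the share was 1.86%. Named genes other than Itgax were chosen by their P5 results, from libraries that also enter this test. Their share therefore cannot be set against that over all genes. Each value below is the log2 fold change at P5 minus that at 9 months. The calls rest on 2 libraries per group at 9 months, and 0 remained when any 9-month library or P5 CD11c- replicate 3 was left out. The kit differs between the ages and cannot be told apart from age. The test is of the difference, and it does not judge the sign of a fold change at 9 months.

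Among genes higher in CD11c+ at P5, the differences were Ccl7 2.71, Serpinb8 3.25, Cmah 5.49, Arhgap10 5.22, Cemip2 4.01, Tfec 2.76, Ahr 3.99, Ccl24 2.71, Pf4 3.85, Ccr1 4.54, Ddx60 2.62 and F13a1 5.51. Ccr1, a chemokine receptor, had a fold change of 1.99 at P5 and -2.55 at 9 months. F13a1, a coagulation factor chain and border marker, went from 5.13 to -0.38.

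Among genes lower at P5 with a fold change above 0 at 9 months, they were Slco4a1 -3.43, Col27a1 -2.47, Tmem44 -3.90, Mrc2 -3.77, Kcnd1 -2.87, Pmepa1 -3.14, Ecscr -2.66, Nav3 -2.09, Sall3 -2.25, Slc2a5 -3.35 and Blnk -1.95. Slc2a5 had -1.57 at P5 and 1.78 at 9 months.

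A further group was lower in CD11c+ at 9 months by more than at P5, or only there below 0, and holds neutrophil and cell cycle genes among others, at Slfn4 3.59, Il18rap 2.99, E2f2 2.35, Cenpa 3.28, Stmn1 2.65, Mmp8 3.79, Cebpe 3.87 and Stfa2l1 4.73. Mmp8, a neutrophil collagenase, had -3.26 at P5 and -7.05 at 9 months. Cenpa, the centromeric histone, had 0.53 and -2.75.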

How the results depend on the processing

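With 6 libraries, 46 genes were higher and 0 lower. The higher count was 75 with library totals only, 30 with no filter on low counts, 359 with DESeq2, 75 with limma-voom, 1371 with limma-voom and sample quality weights and 104 in the fit with the 9-month libraries. The lower count was 2 with no filter, 149 with DESeq2, 1900 with quality weights and 34 with the 9-month libraries. Leaving out 1 library gave 0 to 801 higher and 0 to 700 lower. With 5 libraries (801 and 700), no filter gave 1648 and 2129, DESeq2 1388 lower, limma-voom 345 lower and the fit with the 9-month libraries 459 lower, and leaving out 1 library gave 156 to 1692 higher and 18 to 2269 lower. The difference between ages (305 positive, 59 negative) gave 521 and 102 with DESeq2 size factors, and 0 to 1889 and 0 to 1607 with 1 library left out, the highest without P5 CD11c+ replicate 2. Of 169 named genes called with 5 libraries, 72 kept their call in all 5 fits that left out 1 library, and no named call changed sign under the alternatives run on its own libraries, whereas adding CD11c+ replicate 2 turned genes such as Ebf1 and Kl to positive values. Library totals moved the median of all genes from -0.004 to 0.154 with 5 libraries and from 0.061 to 0.264 with 6. Same-numbered P5 libraries of the 2 groups correlated in their deviations at 0.457, 0.095 and -0.403. Deviations from a group mean cancel within the group, and CD11c+ replicate 2 stands apart, so these values cannot tell whether the numbers pair the libraries. A replicate block gave 0 higher and 0 lower with 6 libraries, 706 and 570 with 5, and 0 and 0 for the difference between ages. The depth of CD11c+ replicate 2, 2619610 counts, limits what it shows of weak genes.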
